A study of Mus musculus with 6 samples.

Results

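A set of 8 genes for C-type lectin receptors of myeloid cells, Clec4d, Clec4e, Clec4n, Clec7a, Clec5a, Clec4a2, Clec12a and Clec4a3, was taken by symbol from a table of FPKM values (fragments per kilobase of gene, scaled to the mapped fragments of each library) for 18939 genes, and all 8 were found. Messenger RNA of mouse skin had been sequenced in 6 libraries. There were 3 CKO libraries (replicates 1, 2 and 5), labelled as a conditional knockout of VAMP7 in basophils, and 3 FLOX libraries (replicates 2, 3 and 5), titled FLOX and given a wild-type genotype label. An MC903-OVA model is named in the title of the series. MC903 (calcipotriol) inflames mouse skin when applied to it; the title does not spell out OVA. VAMP7 is a membrane fusion protein of vesicles, and basophils are rare granulocytes of allergic inflammation. The Cre driver, strain, age, sex and time of treatment were not given in the sources used here, and untreated skin was not analysed here. Nothing in the labels says whether libraries came from separate animals, so p-values measure the spread between these samples only, which may be technical.

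Myeloid C-type lectin receptors sit on neutrophils, monocytes, macrophages and dendritic cells and bind sugars and lipids of fungi and mycobacteria, and some of them bind products of dying cells. Mincle (Clec4e), MCL (Clec4d) and Dectin-2 (Clec4n) signal through the ITAM-bearing adaptor FcRγ, encoded by Fcer1g, and Dectin-1 (Clec7a) carries an ITAM-like motif in its own tail. These motifs recruit the kinase Syk, which acts through the CARD9, BCL10 and MALT1 complex to switch on inflammatory genes. MDL-1 (Clec5a) uses the adaptor DAP12, encoded by Tyrobp. DCIR (Clec4a2) and MICL (Clec12a) instead carry an inhibitory motif (ITIM) that recruits phosphatases.

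In CKO skin the mean of every one of the 8 receptor genes was lower than in FLOX skin, with CKO means 22.4% to 66.3% below FLOX means. Clec4d fell, and the other 7 did not pass the test across all genes. The 3 CKO values lay below all 3 FLOX values for 6 of the 8, and the groups overlapped for Clec4a3 and Clec12a. The differences were tested on log2(FPKM + 1) with limma, two-sided, with Benjamini-Hochberg adjustment over the 12994 genes that had at least 1 FPKM in at least 3 libraries. All 8 receptors passed that filter. Of all tested genes 0.600% were called lower and 0.354% higher, 11.4% had all CKO values below all FLOX values, and 43.9% had a negative log2 fold change. The share with all CKO values above all FLOX values is not given here. Counts of genes in that direction below therefore have no background to be judged against. The median log2 fold change was -0.66 over the 8 receptors and 0.03 over all tested genes. All fold changes are CKO minus FLOX, given as differences of log2(FPKM + 1), a scale that compresses changes of low genes. Whether fewer receptor-bearing cells or less of each transcript per cell lay behind a lower value cannot be told apart in whole skin.

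FPKM summed over the table to 556412 in CKO replicate 2, the lowest library, and to 594987 in CKO replicate 5, the highest. Keratin genes of skin were high in every library. A list of 7 keratinocyte genes summed to 9493 to 12430 FPKM in CKO skin, against 8012 to 8466 FPKM in FLOX skin. None of the 7 passed, all had positive fold changes (median log2 0.45), and 6 had all CKO values above all FLOX values, with overlap for Krt14. Krt10, a keratin of differentiating epidermis, averaged 1239 ± 404 FPKM in CKO skin, against 472 ± 99.3 FPKM in FLOX skin (log2 fold change 1.37, limma adjusted p = 0.0514). Vamp7 measured 19.5 ± 0.352 FPKM in CKO skin, against 20.9 ± 0.565 FPKM in FLOX skin (n = 3 each, mean ± SD). All its CKO values lay below all FLOX values, and it did not pass (limma adjusted p = 0.475). Cells of skin other than basophils also express Vamp7, and their part in its values was not tested. All 8 receptors were lowest of the 6 libraries in CKO replicate 2. A list of 8 skeletal muscle genes summed to 570 to 1549 FPKM in CKO skin, the highest being CKO replicate 2, and to 192 to 442 FPKM in FLOX skin. None of the 8 passed the test, and each had all CKO values above all FLOX values. The part of tissue composition in the receptor values was not tested.

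**Figure D1:**
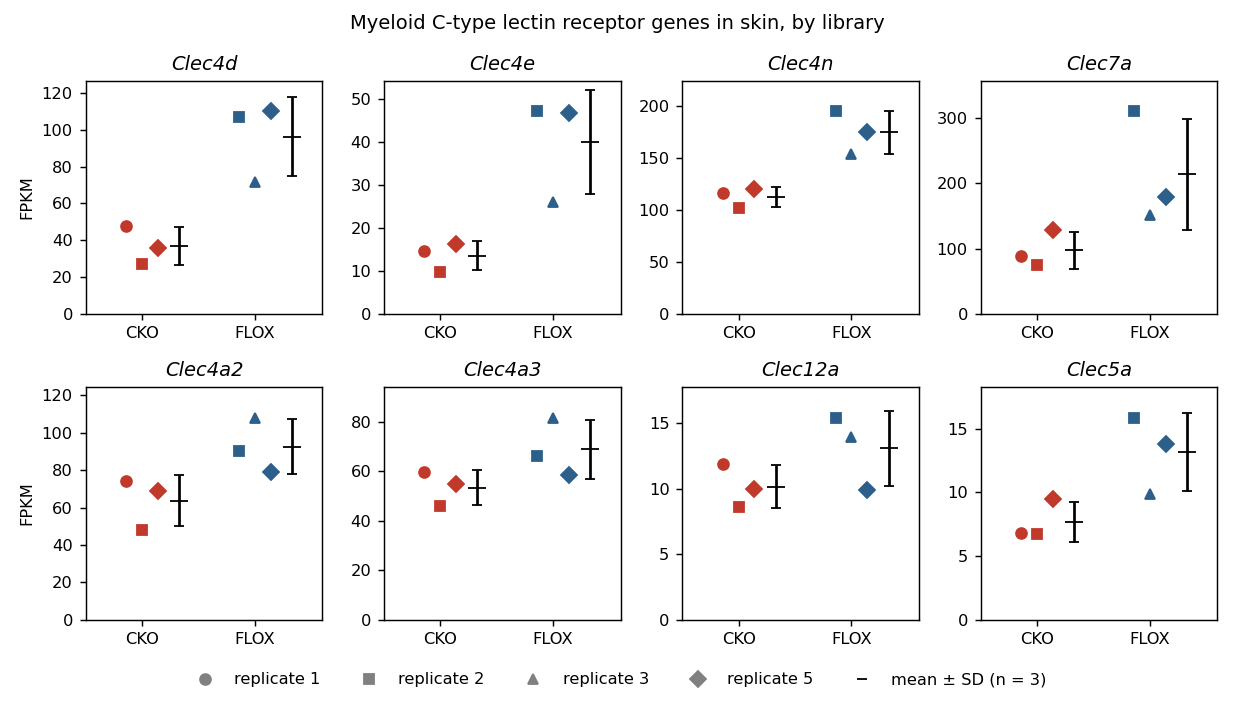
FPKM of the 8 receptor genes on linear axes that start at 0 and differ between panels; each point is 1 library, its shape the replicate number, and black marks show mean ± SD of 3 libraries. The CKO points lie below the FLOX points except for Clec4a3 and Clec12a, where the groups overlap.

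Clec4d (NCBI Gene ID 17474) encodes MCL, which binds the mycobacterial glycolipid trehalose dimycolate and helps bring Mincle to the cell surface. It measured 47.56, 27.27 and 35.59 FPKM in CKO replicates 1, 2 and 5, against 107.27, 71.4 and 110.08 FPKM in FLOX replicates 2, 3 and 5. The lowest FLOX value was thus well above the highest CKO value. The means were 36.8 ± 10.2 FPKM in CKO skin, against 96.2 ± 21.6 FPKM in FLOX skin (log2 fold change -1.37, SE 0.23, limma adjusted p = 0.047). That adjusted p was the smallest in the whole table and was shared by 120 genes. The call was lost without CKO replicate 2 (adjusted p = 0.114), CKO replicate 5 (0.051), FLOX replicate 2 (0.162), FLOX replicate 3 (0.0647) or FLOX replicate 5 (0.103), while the fold change stayed between -1.77 and -1.18 under all 16 alternatives. The -1.77 came from a fit with a replicate block, which rests on replicates 2 and 5 of each group alone.

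Clec4e (NCBI Gene ID 56619) encodes Mincle, the partner of MCL and a sensor of the same glycolipid and of a protein released by dying cells. It measured 14.5, 9.71 and 16.16 FPKM in CKO replicates 1, 2 and 5, against 47.03, 25.89 and 46.71 FPKM in FLOX replicates 2, 3 and 5. FLOX replicate 3 stood lower than the other FLOX libraries, as for Clec4d, and was still above every CKO library. Clec4e had the largest fold change of the 8 receptors (-1.48, SE 0.26), with means of 13.5 ± 3.35 FPKM in CKO skin, against 39.9 ± 12.1 FPKM in FLOX skin, and missed the threshold (limma adjusted p = 0.0513). It passed without CKO replicate 5 (limma adjusted p = 0.0413), and its adjusted p ran from 0.0141, in the replicate block, to 0.162 over the alternatives.

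Clec4n (NCBI Gene ID 56620) encodes Dectin-2, which binds fungal mannans. It measured 115.96, 102.03 and 120.58 FPKM in CKO replicates 1, 2 and 5, against 195.08, 153.91 and 175.53 FPKM in FLOX replicates 2, 3 and 5. The groups were apart and the values within each lay close together, with means of 112.9 ± 9.66 FPKM in CKO skin, against 174.8 ± 20.6 FPKM in FLOX skin. Its fold change was smaller than those of Clec4d and Clec4e (-0.62, SE 0.11, limma adjusted p = 0.0514). It passed without CKO replicate 5 (limma adjusted p = 0.0459; 0.0459 to 0.162 over the alternatives).

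Upstream sequence is shown for Clec4d and Clec4e, which had the largest fold changes and lie next to each other on chromosome 6, and for Clec4a2, a receptor of the same cluster with a smaller difference. Each run holds the 250 bases before the RefSeq transcription start in build GRCm38.p6, at chr6:123261857-123262106 on the plus strand for Clec4d, chr6:123289872-123290121 on the minus strand for Clec4e and chr6:123122440-123122689 on the plus strand for Clec4a2. Capitals mark matches, on either strand, to the PU.1 core GAGGAA, to TGANTCA of AP-1, to TTNNGNAA of C/EBP factors or to the NF-kappaB consensus. The build the authors aligned to is not given in the sources used here, and the sequence is shown for context only.
Clec4d: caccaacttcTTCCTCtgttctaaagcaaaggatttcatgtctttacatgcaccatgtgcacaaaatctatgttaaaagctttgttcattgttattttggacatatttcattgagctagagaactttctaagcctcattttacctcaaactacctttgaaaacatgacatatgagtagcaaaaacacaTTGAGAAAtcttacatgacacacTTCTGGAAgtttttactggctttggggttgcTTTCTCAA
Clec4e: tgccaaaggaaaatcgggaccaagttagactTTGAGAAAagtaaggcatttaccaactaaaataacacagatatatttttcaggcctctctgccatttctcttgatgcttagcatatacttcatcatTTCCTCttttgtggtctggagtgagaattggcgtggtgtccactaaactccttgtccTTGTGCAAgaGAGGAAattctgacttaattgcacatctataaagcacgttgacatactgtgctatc
Clec4a2: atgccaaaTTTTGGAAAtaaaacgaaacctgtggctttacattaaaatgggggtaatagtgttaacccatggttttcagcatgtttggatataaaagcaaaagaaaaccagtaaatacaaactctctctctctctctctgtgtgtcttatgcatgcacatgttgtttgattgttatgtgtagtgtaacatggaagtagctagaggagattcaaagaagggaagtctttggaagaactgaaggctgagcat

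PU.1 and C/EBP are transcription factors of myeloid cells, and AP-1 and NF-kappaB act in inflammation. The Clec4d window held 1 match to GAGGAA and 3 to TTNNGNAA, and the Clec4e window 2 and 2. The Clec4a2 window held none to GAGGAA and 2 to TTNNGNAA, which overlapped each other. Such matches are common: among 27025 mouse genes, 23.1% had GAGGAA, 36.9% TTNNGNAA, 6.87% TGANTCA and 7.01% the NF-kappaB consensus in the same window. The table held 7 of the 8 receptors. In the other 4 of those 7 windows, Clec12a held 2 matches to GAGGAA, 2 to TTNNGNAA and 1 to TGANTCA, Clec5a 2 to GAGGAA and 1 to TTNNGNAA, and Clec7a 1 to GAGGAA. The Clec4a3 window held none, but bases just after the RefSeq start used were not found in the GENCODE transcripts of Clec4a3, unlike for the other 6. That start is therefore uncertain. Clec7a and Clec4a3 have 2 RefSeq starts each, and only the first listed was searched. The NF-kappaB consensus letters were in none of the 7 windows. A match of letters is no evidence of binding.

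The receptors that activate through other routes were Clec7a and Clec5a. Clec7a (NCBI Gene ID 56644) encodes Dectin-1, the receptor for fungal beta-glucan. It measured 88.79, 74.02 and 128.54 FPKM in CKO replicates 1, 2 and 5, against 310.82, 151.91 and 179.65 FPKM in FLOX replicates 2, 3 and 5. FLOX replicate 2 stood far above the rest, and CKO replicate 5 came close to FLOX replicate 3. The means were 97.1 ± 28.2 FPKM in CKO skin, against 214.1 ± 84.9 FPKM in FLOX skin (log2 fold change -1.10, SE 0.29), and the difference did not pass (limma adjusted p = 0.0846). The fold change was -0.80 in the setting that brought it nearest to 0.

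Clec5a (NCBI Gene ID 23845) encodes MDL-1, which binds dengue virus. It measured 6.84, 6.74 and 9.45 FPKM in CKO replicates 1, 2 and 5, against 15.87, 9.89 and 13.76 FPKM in FLOX replicates 2, 3 and 5. The groups were separated only by the gap between CKO replicate 5 and FLOX replicate 3. The means were 7.68 ± 1.54 FPKM in CKO skin, against 13.2 ± 3.03 FPKM in FLOX skin (log2 fold change -0.70, SE 0.18, limma adjusted p = 0.0849). Clec7a and Clec5a passed in none of the 16 alternatives.

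The ITIM-bearing receptors and Clec4a3 had the smallest fold changes. Clec4a2 (NCBI Gene ID 26888) encodes DCIR, an inhibitory receptor of dendritic cells and macrophages. It measured 74.09, 48.26 and 68.61 FPKM in CKO replicates 1, 2 and 5, against 90.38, 108.13 and 79.09 FPKM in FLOX replicates 2, 3 and 5. FLOX replicate 3, the lowest FLOX library for Clec4d, Clec4e, Clec4n, Clec7a and Clec5a, was the highest for Clec4a2. The means were 63.7 ± 13.6 FPKM in CKO skin, against 92.5 ± 14.6 FPKM in FLOX skin (log2 fold change -0.54, SE 0.18, limma adjusted p = 0.135). Of the 50-base windows of annotated Clec4a2 transcripts, 6.83% also occur in transcripts of other genes, Clec4b1 and Clec4a4 among them, so its value is less certain with reads of 50 bases. That share was 0.826% for Clec4n, and no shared window was found for the other 6 receptors.

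Clec12a (NCBI Gene ID 232413) encodes MICL, an inhibitory receptor that binds uric acid crystals. It measured 11.9, 8.61 and 9.98 FPKM in CKO replicates 1, 2 and 5, against 15.45, 13.95 and 9.93 FPKM in FLOX replicates 2, 3 and 5. FLOX replicate 5 lay among the CKO libraries. The means were 10.2 ± 1.65 FPKM in CKO skin, against 13.1 ± 2.85 FPKM in FLOX skin (log2 fold change -0.33, SE 0.17, limma adjusted p = 0.321).

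Clec4a3 (NCBI Gene ID 73149) encodes a further member of the DCIR family. It measured 59.61, 45.79 and 54.7 FPKM in CKO replicates 1, 2 and 5, against 65.98, 81.68 and 58.67 FPKM in FLOX replicates 2, 3 and 5. CKO replicate 1 stood just above FLOX replicate 5, and FLOX replicate 3 was again the highest library. The means were 53.4 ± 7.01 FPKM in CKO skin, against 68.8 ± 11.8 FPKM in FLOX skin (log2 fold change -0.35, SE 0.14, limma adjusted p = 0.206). Clec4a2, Clec12a and Clec4a3 passed in none of the 16 alternatives.

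**Figure D2:**
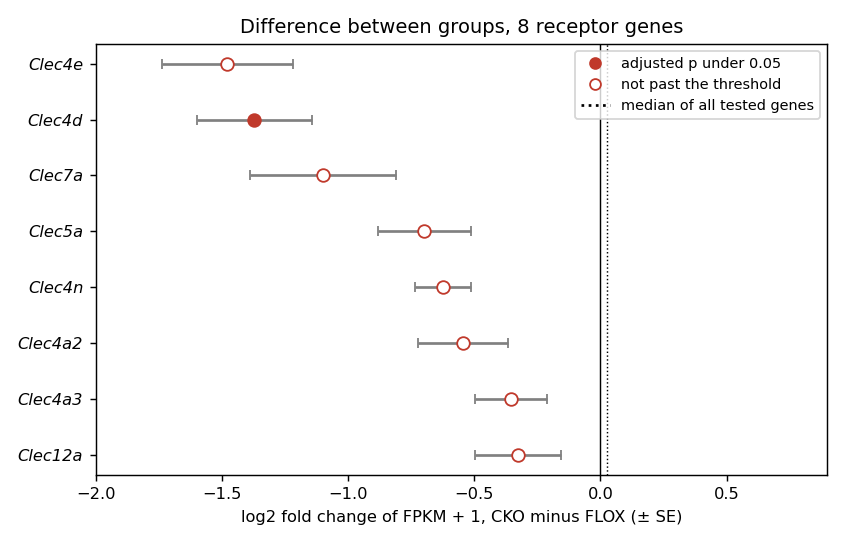
Log2 fold change of FPKM + 1 (CKO minus FLOX) with its SE for the 8 receptors, ordered from the lowest; the filled point is past the threshold and the dotted line is the median of all tested genes. Values run from -1.48 for Clec4e to -0.33 for Clec12a, all below the dotted line at 0.03.

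Because FPKM is scaled to gene length, levels can be set side by side within a group. In CKO skin Clec4n had the highest mean FPKM, followed by Clec7a, Clec4a2, Clec4a3, Clec4d, Clec4e, Clec12a and Clec5a. The ranges of neighbours in that order overlapped except between Clec4d and Clec4e. In FLOX skin the order of means was Clec7a, Clec4n, Clec4d, Clec4a2, Clec4a3, Clec4e, Clec5a and Clec12a, and ranges of neighbours did not overlap between Clec4n and Clec4d, between Clec4a3 and Clec4e and between Clec4e and Clec5a. Clec4d thus stood below Clec4a2 and Clec4a3 in all 3 CKO libraries, and above Clec4a2 in 2 of 3 FLOX libraries. The 8 receptors summed to 419.2, 322.4 and 443.6 FPKM in CKO replicates 1, 2 and 5, against 847.9, 616.8 and 673.4 FPKM in FLOX replicates 2, 3 and 5 (exact two-sided permutation test, p = 0.1, the smallest that 3 libraries against 3 allow). The activating receptors Clec4d, Clec4e, Clec4n, Clec7a and Clec5a summed to 268 ± 45.5 FPKM in CKO skin, against 538 ± 132 FPKM in FLOX skin, and Clec4a2 with Clec12a to 73.8 ± 15.1 FPKM in CKO skin, against 105.6 ± 16.5 FPKM in FLOX skin (n = 3 each, exact permutation p = 0.1 for both).

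Whether the difference between groups itself differed between receptors was tested on ratios within each library, which do not depend on how a library is scaled. The ratio of Clec4d to Clec4a2 was 0.642, 0.565 and 0.519 in CKO replicates 1, 2 and 5, against 1.19, 0.660 and 1.39 in FLOX replicates 2, 3 and 5. The ratio of Clec4e to Clec4a2 was 0.196, 0.201 and 0.236 in CKO replicates 1, 2 and 5, against 0.520, 0.239 and 0.591 in FLOX replicates 2, 3 and 5. For both ratios the groups did not overlap, but FLOX replicate 3 was nearly level with the CKO libraries. The mean log2 ratio, CKO minus FLOX, was -0.85 for Clec4d and -0.996 for Clec4e. By exact permutation, two-sided, p was 0.1 for each, the smallest possible, and 0.2 after adjustment over the 6 ratios tested, so neither passed.

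The ratio of Clec4n to Clec4a2 averaged 1.81 ± 0.279 in CKO and 1.93 ± 0.443 in FLOX skin, with overlapping groups (exact permutation p = 0.8, n = 3 each). That of Clec7a to Clec4a2 averaged 1.54 ± 0.338 in CKO and 2.37 ± 1.02 in FLOX skin (exact permutation p = 0.3, n = 3 each), and that of Clec5a to Clec4a2 0.123 ± 0.0268 and 0.147 ± 0.0481 (exact permutation p = 0.6). These 3 ratios overlapped between the groups. The sum of the 8 receptors over the sum of 7 general leukocyte genes (Ptprc, Cd53, Coro1a, Laptm5, Lcp1, Cd52 and Itgb2) was 0.477, 0.476 and 0.509 in CKO replicates 1, 2 and 5, against 0.669, 0.527 and 0.634 in FLOX replicates 2, 3 and 5. The groups did not overlap, and the mean log2 ratio, CKO minus FLOX, was -0.32 (exact permutation p = 0.1, adjusted p = 0.2). The leukocyte genes were themselves lower in CKO skin, with sums of 677 to 880 FPKM, against 1062 to 1267 FPKM in FLOX skin. All 7 had negative fold changes, 6 had all CKO values below all FLOX values, and 1 (Cd53) fell.

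**Figure D3:**
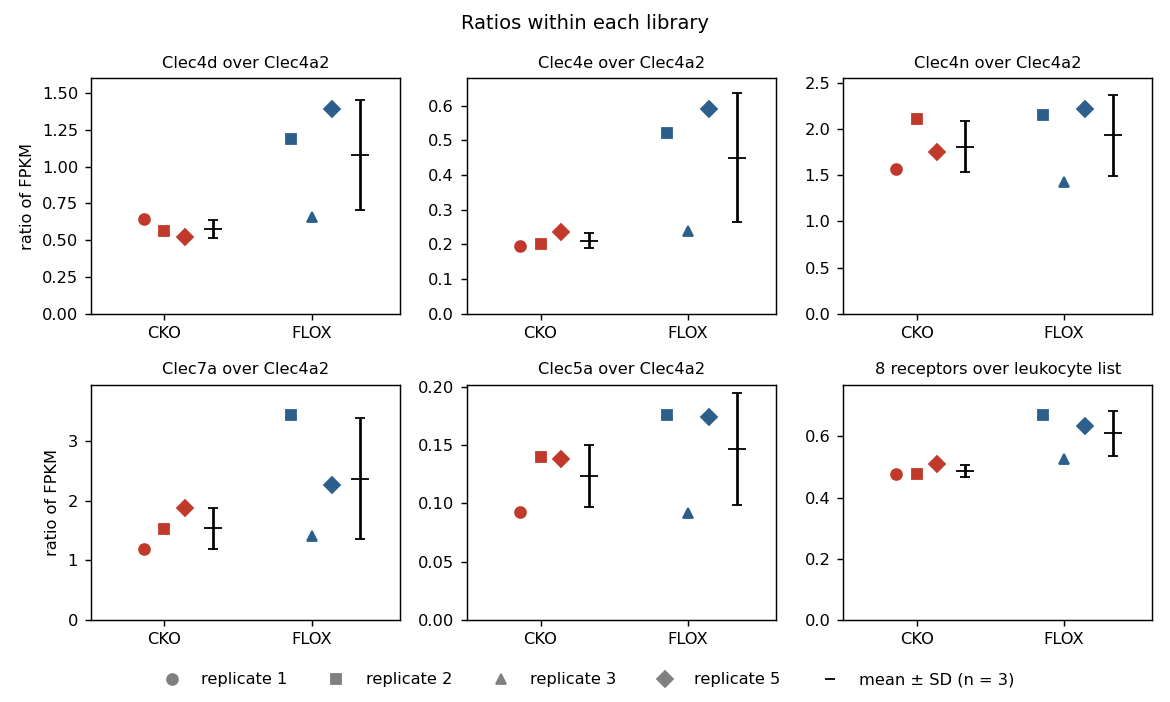
Ratios of FPKM within each library on linear axes that start at 0; points are libraries, shapes replicate numbers and black marks mean ± SD of 3 libraries. Clec4d and Clec4e over Clec4a2, and the receptor sum over the leukocyte list, do not overlap between CKO and FLOX, while Clec4n, Clec7a and Clec5a over Clec4a2 do.

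Marker lists of cells that can carry these receptors, and of basophils, were set beside them. Of 10 neutrophil genes 8 were tested and 5 fell. The list summed to 2575 to 3417 FPKM in CKO skin, against 4457 to 6155 FPKM in FLOX skin. Most of that sum came from S100a8 and S100a9. S100a8 averaged 1622 ± 291 FPKM in CKO skin, against 2917 ± 593 FPKM in FLOX skin. For S100a9 the means were 1148 ± 156 FPKM in CKO skin, against 2310 ± 405 FPKM in FLOX skin. The sum thus mainly followed S100a8 and S100a9, and which cells expressed them was not tested. Of 9 macrophage genes none passed, 7 had all CKO values below all FLOX values, and the list summed to 1993 to 2382 FPKM in CKO skin, against 2591 to 2935 FPKM in FLOX skin. Of 5 monocyte genes none passed, with sums of 269 to 403 FPKM in CKO skin, against 471 to 746 FPKM in FLOX skin. The difference in these sums came mainly from Chil3 (158.6 ± 57.0 FPKM in CKO, 366.4 ± 116.5 FPKM in FLOX skin). Ccr2 (35.3 ± 5.10 and 44.0 ± 12.4 FPKM) and Ly6c2 (37.8 ± 4.90 and 51.0 ± 11.1 FPKM) overlapped between the groups. Of 8 dendritic and Langerhans cell genes 7 were tested and none passed, 5 had positive fold changes, 2 (Cd207 and Epcam) had all CKO values above all FLOX values, and the sums overlapped, with 79.3 to 93.0 FPKM in CKO skin, against 63.1 to 87.1 FPKM in FLOX skin. Of 8 basophil genes, 2 fell, Mcpt8 among them, and 6 had all CKO values below all FLOX values. The sums were 73.8 to 116.6 FPKM in CKO skin, against 199 to 302 FPKM in FLOX skin. Their difference came mainly from Mcpt8 (20.8 ± 6.63 FPKM in CKO, 98.9 ± 18.1 FPKM in FLOX skin) and Il4 (16.9 ± 12.7 and 76.0 ± 42.6 FPKM). Fcer1a (23.8 ± 5.25 and 25.0 ± 1.53 FPKM) and Il3ra (12.6 ± 1.42 and 12.4 ± 0.647 FPKM) overlapped between the groups. No gene of these lists was at 0 in any library. Ly6g, which defines neutrophils, ranged over 0.51 to 0.57 FPKM in CKO skin, against 1.65 to 2.71 FPKM in FLOX skin. It is among the 5 neutrophil genes that fell, and Prss34 is 1 of the 2 basophil genes that fell. Ly6g, Prss34 and Ngp of the neutrophil list were under 1 FPKM in all CKO libraries. These genes passed the filter through FLOX libraries alone, so their tests add no separate support. The part of these cell types in the receptor values was not tested.

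The signalling genes downstream of the receptors mostly had lower means in CKO skin. Of 23 genes from adaptors to NF-kappaB subunits 19 had negative fold changes, 1 fell, 12 had all CKO values below all FLOX values, and the median log2 fold change was -0.26. The gene that fell was Vav1, a signalling exchange factor (12.5 ± 0.443 FPKM in CKO skin, against 18.6 ± 0.996 FPKM in FLOX skin, log2 fold change -0.53, SE 0.08, limma adjusted p = 0.047). Its call was lost without CKO replicate 1 (limma adjusted p = 0.0547), CKO replicate 2 (0.107), FLOX replicate 2 (0.162), FLOX replicate 3 (0.079) or FLOX replicate 5 (0.102). Its fold change stayed negative in every alternative.

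The adaptor gene Fcer1g had a log2 fold change of -0.47 (SE 0.16), and Tyrobp one of -0.65 (SE 0.16), neither past the test. Syk, the kinase shared by the activating receptors, measured 29.71, 20.67 and 24.04 FPKM in CKO replicates 1, 2 and 5, against 39.01, 37.32 and 39.47 FPKM in FLOX replicates 2, 3 and 5 (limma adjusted p = 0.0539). The FLOX values of Syk lay close together and above all CKO values. Lyn, a kinase that phosphorylates ITAM and ITIM motifs, measured 45.9 ± 5.38 FPKM in CKO skin, against 67.1 ± 1.76 FPKM in FLOX skin (limma adjusted p = 0.0514). Card9, the adaptor downstream of Syk, measured 6.27, 3.72 and 6.35 FPKM in CKO replicates 1, 2 and 5, against 7.83, 8.55 and 7.38 FPKM in FLOX replicates 2, 3 and 5, with no overlap (limma adjusted p = 0.157).

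The outputs examined were inflammatory genes that this pathway can induce, as other pathways also can. Of 13 genes, 11 were tested, all 11 had negative fold changes, 1 fell, and the median log2 fold change was -1.45. Il1b, the interleukin 1 beta gene, measured 90.09, 52.16 and 112.48 FPKM in CKO replicates 1, 2 and 5, against 319.56, 234.79 and 522.46 FPKM in FLOX replicates 2, 3 and 5 (log2 fold change -2.06, SE 0.35, limma adjusted p = 0.047). The groups were far apart, and FLOX replicate 3 was the lowest FLOX library, as it was for Clec4d and Clec4e. The call for Il1b was lost without CKO replicate 1 (limma adjusted p = 0.0633), CKO replicate 2 (0.114), FLOX replicate 2 (0.162), FLOX replicate 3 (0.0653) or FLOX replicate 5 (0.102). Cxcl2, a neutrophil chemokine gene, measured 56.7 ± 23.7 FPKM in CKO skin, against 183 ± 55.7 FPKM in FLOX skin (limma adjusted p = 0.0515). Ccl4, a chemokine gene of macrophages, measured 58.9 ± 31.1 FPKM in CKO skin, against 212.6 ± 107.6 FPKM in FLOX skin (limma adjusted p = 0.0727).

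Other C-type lectin genes did not share one direction. Of 29 genes 28 were in the table and 23 were tested, 9 with negative and 14 with positive fold changes, none passed, and the median log2 fold change was 0.06 (-0.0051 after quantile normalization). All CKO values lay below all FLOX values for 2 of them, and above for 3 (Clec3b, Cd207 and Clec4b1). Clec3b measured 50.0 ± 14.4 FPKM in CKO skin, against 23.6 ± 2.40 FPKM in FLOX skin (log2 fold change 1.01, limma adjusted p = 0.0565). Closest to the threshold were Mrc1, the macrophage mannose receptor gene (171.4 ± 9.92 FPKM in CKO skin, against 257 ± 29.8 FPKM in FLOX skin, limma adjusted p = 0.0514), and Olr1, the gene of the oxidised lipoprotein receptor LOX-1 (2.44 ± 0.789 FPKM in CKO skin, against 7.29 ± 2.38 FPKM in FLOX skin, limma adjusted p = 0.0515). Clec10a, a galactose-type lectin gene of macrophages and dendritic cells, was high in both groups, at 226.9 ± 17.5 FPKM in CKO skin, against 203 ± 49.4 FPKM in FLOX skin, with overlapping values (limma adjusted p = 0.586).

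Of the 8 receptor genes, 7 lie in 2 clusters of C-type lectin genes on chromosome 6, by the gene order of the RefSeq table, and Clec5a lies elsewhere on that chromosome. In the Dectin-2 cluster of 9 genes the order was Clec4a1, Clec4a3, Clec4a4, Clec4b1, Clec4a2, Clec4b2, Clec4n, Clec4d and Clec4e. The tested genes at its Clec4a1 end had log2 fold changes of -0.11 (SE 0.09) for Clec4a1, -0.35 for Clec4a3 and 0.76 (SE 0.26) for Clec4b1. Those at its other end were lower, at -0.62 for Clec4n, -1.37 for Clec4d and -1.48 for Clec4e. Clec4b1, the gene of a DCAR receptor that pairs with FcRγ, was the 1 tested gene of this cluster with the opposite sign, and measured 4.4, 2.53 and 2.26 FPKM in CKO replicates 1, 2 and 5, against 1.62, 1.92 and 0.68 FPKM in FLOX replicates 2, 3 and 5. Its groups did not overlap, and it did not pass (limma adjusted p = 0.146). Clec4a1 measured 35.0 ± 2.54 FPKM in CKO skin, against 38.0 ± 2.99 FPKM in FLOX skin. Clec4a4 and Clec4b2 averaged under 1 FPKM in both groups and were not tested.

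In the Dectin-1 cluster, Clec7a and its neighbour Olr1 had log2 fold changes of -1.10 and -1.25 (SE 0.23). Clec12a at the other end was at -0.33. Clec12b (0.10, SE 0.13) and Clec1a (0.07, SE 0.15), which lie between, were below 2 FPKM in every library and their sign was not stable: both were negative after quantile normalization. Clec1b and Clec9a, also between them, were too low to be tested.

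**Figure D4:**
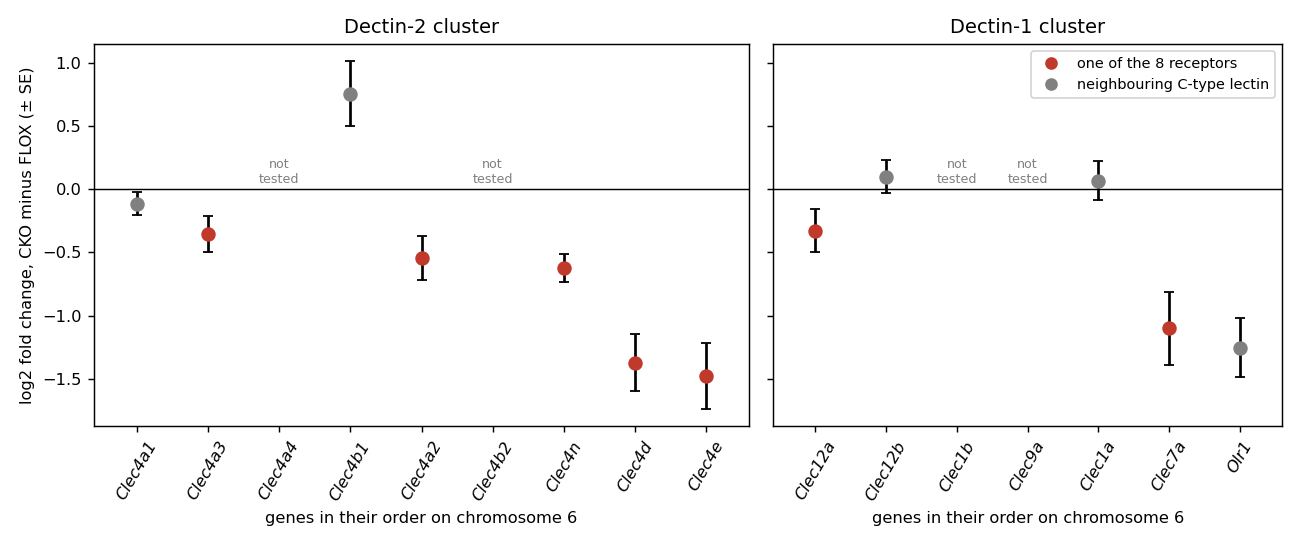
Log2 fold change of FPKM + 1 (CKO minus FLOX) with its SE for C-type lectin genes in their order on chromosome 6, evenly spaced and not to scale. Those of the 8 receptors that lie in these clusters are in red and neighbours in grey. Clec5a lies elsewhere on that chromosome and is not shown. In the Dectin-2 cluster values run from 0.76 for Clec4b1 to -1.48 for Clec4e, and in the Dectin-1 cluster Clec7a and Olr1 are the lowest.

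The genes most alike to each receptor were found as the smallest root mean square difference between centred log2(FPKM + 1) profiles over the 6 libraries, among 9191 other tested genes with a mean of at least 5 FPKM and no provisional name. Since the members differ between the groups, a small difference partly reflects a similar fold change. Clec4d was closest to Cd14, the lipopolysaccharide co-receptor gene (0.101 log2 units), and Clec4e to Fpr1, a formyl peptide receptor gene (0.0953). Clec7a was closest to Tarm1 (0.083), Clec4n to Gata2 (0.0504), which also stands in the basophil list, and Clec5a to Il4ra (0.0589). Clec4a2 was closest to Snx5 (0.0633), Clec4a3 to Rfc4 (0.0377) and Clec12a to Arhgap4 (0.0748). The mean profile of all 8 receptors was closest to Rab44 (0.064), to the leukocyte tetraspanin gene Cd53 (0.0702) and to the NADPH oxidase subunit gene Ncf4 (0.0768). Within the 8 receptors, Clec4d and Clec4e were each other's nearest (0.187), as were Clec4a2 and Clec4a3 (0.125) and Clec4n and Clec5a (0.143), while Clec7a was nearest to Clec5a (0.286) and Clec12a to Clec4a3 (0.148).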

How the data were processed

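The libraries came from oligo(dT)-selected RNA of skin read as single ends of 50 bases, per the labels' protocols. HISAT is named without version, per the submitters' processing notes; the counter, the build and the annotation used were not given in the sources used here. The deposited table holds FPKM by the authors, per the file headers, for 18939 genes and 6 libraries. Whole reads could not be recovered from it, so depth is unknown and no counting interval is given.

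Differences were tested with limma 3.58.1 in R 4.3.3 (trended empirical Bayes) on log2(FPKM + 1), for 12994 genes with at least 1 FPKM in 3 libraries, with a threshold of 0.05 on the Benjamini-Hochberg adjusted p. The same code was checked on simulated data. Sums and ratios were tested by exact permutation with scipy 1.17.1. The genes and lists were chosen with earlier results of these data known. Named genes were the 8 receptors, Vamp7, of each pathway list the 2 smallest p, the 2 highest means, those past the threshold and fixed genes (Fcer1g, Tyrobp, Syk, Card9, Clec4a1, Clec4b1, Clec4a4), and the closest profiles. The other genes of the 2 clusters, Clec3b, Csf2, Il12b, Il23a and the marker genes S100a8, S100a9, Ngp and Prss34 were added afterwards. So were the marker genes Mcpt8, Il4, Fcer1a, Il3ra, Chil3, Ccr2 and Ly6c2. Promoters came from a RefSeq table, build GRCm38.p6. Alternatives are given in the closing section.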

Additional observations from a re-analysis of the deposited data

How the results depend on the processing

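All 8 receptors kept a negative fold change under all 16 alternatives, and calls depended on the setting. The replicate block is an alternative that adds the replicate number to the model. Only numbers 2 and 5 occur in both groups, so its fold changes rest on replicates 2 and 5 of each group alone. CKO replicate 1 and FLOX replicate 3 do not bear on them, and little is left to estimate the spread from. Clec4d did not pass without a filter (-1.37, adjusted p = 0.0966), after quantile normalization (-1.35, 0.053), without an intensity trend (-1.37, 0.0526) or with robust empirical Bayes (-1.37, 0.0537); leaving out a library gave -1.57 to -1.18. Clec4e passed with the filter at 5 FPKM (-1.48), array weights (-1.46) and the replicate block (-1.82), and gave -1.76 to -1.28 with a library left out. Clec4n passed with the filter at 5 FPKM and array weights (-0.62 in both) and ran from -0.71 to -0.54 with a library left out. Receptors called lower were 0 without a filter, after quantile normalization, without a trend and with robust fitting, 3 with the filter at 5 FPKM and array weights, 2 under the block, and 0 to 2 with a library left out.

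Signalling genes called lower were 0 without a filter, after quantile normalization, without a trend and with robust fitting, 2 with the filter at 5 FPKM, median-ratio scaling and array weights, and 0 to 2 with a library left out. The count was 1 under the block too, but of another gene: Vav1 did not pass (-0.51, adjusted p = 0.138) and Syk did (-0.79, 0.0486). Output genes were 0 in the same 4 settings, 2 with array weights, 9 under the block and 0 to 4 with a library left out. Other C-type lectin genes called lower were 2 with the filter at 5 FPKM and array weights, 1 after median-ratio scaling and 0 to 1 with a library left out, and those called higher 0 to 1 with a library left out. Of all tested genes 124 passed (78 lower, 46 higher), against 1 without a filter, 187 with the filter at 5 FPKM, 0 after quantile normalization (2632 at an unadjusted p under 0.05), 32 without a trend, 10 with robust fitting, 274 with array weights, 219 under the block and 0 to 417 with a library left out. Median-ratio scaling gave 116 lower and 42 higher.

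Values near 0 changed sign. The median of other C-type lectin genes and Clec12b were both -0.0051 and Clec1a -0.0495 after quantile normalization. Clec12b was -0.0342 under the block and -0.016 to 0.193 with a library left out, and Clec1a -0.0409 to 0.186. The log2 ratio of Clec4n to Clec4a2 was -0.28 to 0.037 with a library left out. The other sums and ratios kept their sign with Clec12a as the denominator, with median-ratio scaling (sums) and with a library left out. The cause of these shifts was not tested. Filters change how many genes are adjusted over and also which genes the empirical Bayes trend is fitted on, and these were not separated.

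The replicate numbers 2 and 5 occur in both groups. Deviations from the group means correlated across genes at 0.132 for number 2 and -0.105 for number 5, against -0.392 to 0.229 between unlike numbers. So few values cannot decide whether the numbers mark pairs, and the main test did not treat them as pairs. Depth is unknown, so its part in these results was not tested, and 3 libraries per group limit the permutation tests to p = 0.1.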
